A study of Homo sapiens with 5 samples.

Results

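The IRS4 locus on the long arm of the human X chromosome was followed across 5 poly(A) site libraries of HEK293T cells, a human embryonic kidney line. The 5 genes described are IRS4, RP6-24A23.3, RP6-24A23.6 and RP6-24A23.7, which were chosen because they had almost no reads in either CFIm59 knockout line, and COL4A5, the nearest gene on the centromere side, which was chosen by position. They are 5 of 29792 genes with a site of their own in the deposited table, and they hold 115 of its 272248 distinct sites. The libraries came from 2 CFIm59 (gene CPSF7) knockout lines, 2 CFIm68 (gene CPSF6) knockout lines and 1 wild-type control, with the knockouts made by CRISPR/Cas9 in the same HEK293T background. Each knockout library is a separate cell line, so differences between lines of 1 genotype include any difference between their founder cells, and the control has no replicate. All cells were grown untreated in the same medium, and the reads of each library mark where mRNA 3′ ends were cut and polyadenylated.

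IRS4 is an insulin receptor substrate, an adaptor that carries signals from the insulin and IGF1 receptors to PI3-kinase, and it was first purified from HEK293 cells, in which it is abundant. COL4A5 encodes a chain of type IV collagen, the network-forming collagen of basement membranes, and it shares a divergent promoter region with COL4A6. CFIm59 and CFIm68 are alternative large subunits of cleavage factor Im, which binds UGUA motifs upstream of poly(A) sites and takes part in the choice between sites.

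RP6-24A23.3 carries the identifier ENSG00000237863, which is paired with the symbol IRS4-AS1 in a table of current gene names, and it runs on the plus strand, antisense to IRS4. RP6-24A23.6 (ENSG00000260548) and RP6-24A23.7 (ENSG00000261409) have no such symbol. GENCODE 29 classes RP6-24A23.6 as protein coding and RP6-24A23.7 as sense overlapping. Both lie on the minus strand inside the span that RefSeq gives to IRS4, so reads of IRS4, RP6-24A23.6 and RP6-24A23.7 cannot be assigned to 1 of the 3 with certainty, and they are also given as a sum. The deposited table lists 8 sites for IRS4, all classed as intron, 38 for RP6-24A23.6, 11 for RP6-24A23.7 and 6 for RP6-24A23.3.

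The stretch of DNA just upstream of IRS4 is shown because 1 of the 2 start regions that RefSeq (GRCh38.p14) gives IRS4 overlaps that of its antisense gene. That window of 250 nt before the IRS4 start lies at chrX:108736378-108736627 on the minus strand, and 162 nt of it also belong to the window of IRS4-AS1, which lies at chrX:108736290-108736539 on the plus strand. Capitals mark GGGCGG and CACGTG, searched on both strands together with TATAAA and CCAAT.
IRS4 start region: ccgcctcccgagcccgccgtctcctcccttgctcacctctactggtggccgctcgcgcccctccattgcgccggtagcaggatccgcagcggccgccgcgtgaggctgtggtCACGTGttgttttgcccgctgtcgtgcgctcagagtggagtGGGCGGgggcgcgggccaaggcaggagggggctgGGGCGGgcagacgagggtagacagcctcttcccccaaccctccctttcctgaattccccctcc
This window holds 23 CG dinucleotides, against a median of 11 over 35116 RefSeq windows, and 70.4% of its bases are G or C. It holds 2 GGGCGG motifs, present in 42.6% of all windows, and 1 CACGTG motif, present in 6.34%. Neither TATAAA (10.7% of windows) nor CCAAT (32.0%) is found in it. All the marked motifs lie in the stretch shared with the IRS4-AS1 window. The other IRS4 window, chrX:108736564-108736813 on the minus strand, shares 0 nt with the IRS4-AS1 window and holds 16 CG dinucleotides, 2 GGGCGG motifs and no CACGTG.

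The transcript ends below are shown because the deposited sites mark 3′ ends. They are the last 30 nt of GENCODE 29 transcripts, with the poly(A) signal AATAAA or ATTAAA in capitals where it occurs on the transcript strand.
RP6-24A23.7 (ENST00000564206): agctactcacAATAAAtgtgttcatgtaaa
RP6-24A23.6 (ENST00000563887): actttaaaccagggcacataaagaaaaaac
IRS4 (ENST00000372129): tctacagtgttagggatactatttcattaa
RP6-24A23.3 (ENST00000436013): tacaatatttccccatattattatgcatca
COL4A5 (ENST00000328300): tataaatttaATTAAAgatatatgttgtaa
A signal was found at the annotated ends of the RP6-24A23.7 and COL4A5 transcripts and not in the last 30 nt of the other 3. Of 198129 annotated transcripts, 28.2% have one of the 2 signals there. The deposited sites use hg19 positions, so the ends were not matched to them.

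IRS4 itself had 0 reads in CFIm59 line 1 and 0 in line 2, 61 and 19 reads in the CFIm68 lines, and 32 in the control. Both CFIm59 lines thus lay below all 3 other libraries. At a floor of 3 reads per library, IRS4 was at least 6.68-fold lower than the control in CFIm59 line 1 and at least 9.68-fold lower in line 2, after scaling for library size. Its 2 best-supported sites were at position 107977564, with 0 and 0 reads in the CFIm59 lines, 38 and 10 in the CFIm68 lines and 20 in the control, and at 107976887, with 0 and 0, then 14 and 5, then 6. These values describe the choice of the gene and carry no test.

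RP6-24A23.7 held most reads of the locus, with 3 and 5 reads in the CFIm59 lines, 4105 and 2775 in the CFIm68 lines and 2864 in the control. That is 1.92 ± 0.190 CPM (counts scaled to library size with TMM factors, mean ± SD of 2 lines) in CFIm59 knockouts, 1320.1 ± 137 CPM in CFIm68 knockouts and 1069 CPM in the control. The gene stood 549-fold lower in the CFIm59 lines than in the control, with an exact 95% counting interval of 278 to 1273. Intervals and floors cover counting error only, since reads carry no molecular identifiers.

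RP6-24A23.6 had 0 and 1 reads in the CFIm59 lines, 499 and 175 in the CFIm68 lines and 343 in the control. It was 526-fold lower in the CFIm59 lines than in the control, with a counting interval of 93.8 to 20839.5. This fold rests on 1 read: the ratio of CFIm59 knockout to control was 0.00190 over both lines and 0.00321 without CFIm59 line 1, and line 2 held the read. Its 3 largest sites were at 107965513, 107966113 and 107968521. The first had 0 and 1 reads in the CFIm59 lines, 103 and 48 in the CFIm68 lines and 107 in the control. The other two had 0 in both CFIm59 lines, against 98 and 43 reads at 107966113, and 146 and 30 at 107968521, in the CFIm68 lines, and 92 and 75 in the control.

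The antisense gene RP6-24A23.3, on the opposite strand, was low in the same libraries. It had 1 and 1 reads in the CFIm59 lines, 99 and 62 in the CFIm68 lines and 79 in the control, and was 60.6-fold lower in the CFIm59 lines than in the control (counting interval 16.2 to 509). Nearly all of its reads were at 1 last exon site, position 107982930, with 1 and 1 reads in the CFIm59 lines, 95 and 59 in the CFIm68 lines and 75 in the control. In bulk libraries, fewer cells that express a gene and less RNA per cell cannot be told apart.

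Along the DNA, the near absence covered 63 listed sites of the 4 genes over 24173 nt, chrX:107960335-107984508 in hg19, on both strands. Reads were seen at 2 and 4 of these sites in the CFIm59 lines, at 48 and 39 in the CFIm68 lines and at 44 in the control. Of the 22 sites with 10 or more reads over all libraries, 18 had 0 in both CFIm59 lines. Because the 4 genes were chosen for low CFIm59 reads, these counts describe that choice and carry no test. Sites in introns and in last exons both had few reads in the CFIm59 lines. Those in introns held 3 and 5 reads in the CFIm59 lines, 4507 and 2895 in the CFIm68 lines and 3112 in the control, and those in last exons held 1 and 2, then 254 and 134, then 205. The last listed COL4A5 site lies 15846 nt before the first of them. On the other side the next listed site belongs to CTD-2328D6.1, 312854 nt away. That gene had 0 and 0 reads in the CFIm59 lines, 2 and 2 in the CFIm68 lines and 0 in the control.

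**Figure D1:**
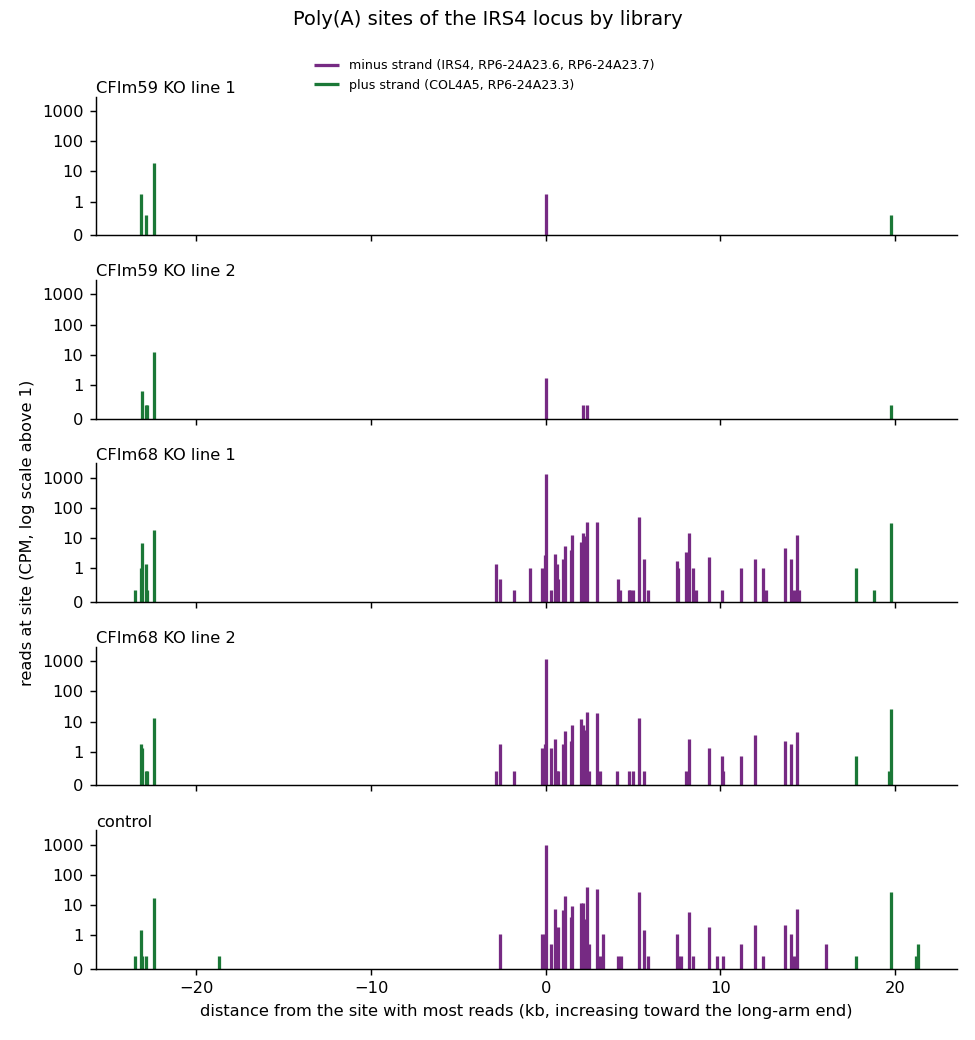
Reads at each poly(A) site in CPM (vertical axis, log scale above 1) against distance in kb from the site with most reads (horizontal axis), with 1 panel per library and strand by colour. The CFIm59 lines show COL4A5 sites on the left and almost nothing in the 24173 nt of the other 4 genes, where the CFIm68 lines and the control show 48, 39 and 44 sites with reads.

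The minus-strand genes together had 3 and 6 reads in the CFIm59 lines, 4665 and 2969 in the CFIm68 lines and 3239 in the control. A single site, chrX 107963181 on the minus strand, classed as an intron site of RP6-24A23.7, supplied most of them, with 3 and 4 reads in the CFIm59 lines, 3955 and 2682 in the CFIm68 lines and 2667 in the control. Its share of the sum was 84.8% (Wilson 95% interval 83.7 to 85.8) and 90.3% (89.2 to 91.3) in the CFIm68 lines and 82.3% (81.0 to 83.6) in the control. The other sites on that strand were spread over 18902 nt and had at most 146 reads in any library. The minus-strand sum was 552-fold lower in the CFIm59 lines than in the control, with an exact 95% counting interval of 290 to 1208. That fold describes the choice of the genes and carries no test.

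In the CFIm68 knockouts, whose values the choice of genes did not use, all 5 genes were read in both lines. IRS4 and the RP6-24A23 genes passed the read filter only through reads in the CFIm68 lines and the control. Being read there thus partly follows from the choice, and the comparison shares the control that the choice needed to be above 0. None of the 5 genes passed edgeR's quasi-likelihood test at a Benjamini-Hochberg adjusted p under 0.05 for CFIm68 knockout over control, where 3.61% of 14636 genes did (1.59% higher and 2.03% lower). At an unadjusted p under 0.05 the count was also 0, and DESeq2 called 0, leaving 3 of the 5 without an adjusted p. The log2 difference was 0.30 for RP6-24A23.7 (SE 0.23, 95% interval -0.17 to 0.78, adjusted p = 0.559) and -0.03 for RP6-24A23.6 (SE 0.28, interval -0.60 to 0.54, adjusted p = 0.980). It was 0.07 for RP6-24A23.3 (SE 0.32, interval -0.57 to 0.71, adjusted p = 0.950). For IRS4 it was 0.33, with a wide interval of -0.57 to 1.24 (SE 0.45, adjusted p = 0.776), since the CFIm68 lines themselves had 21.1 and 8.38 CPM against 11.9 CPM in the control. For the minus-strand sum the difference was 0.27 (SE 0.24, interval -0.20 to 0.75, adjusted p = 0.618), from 1610 and 1309 CPM in the CFIm68 lines and 1209 CPM in the control. The 2 CFIm68 lines went opposite ways for RP6-24A23.6, with 172 and 77.1 CPM against 128 CPM in the control. Its difference ran from -0.73 to 0.43 with 1 knockout line left out. Differences inside the 95% intervals given here are not excluded, and there was 1 control library.

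**Figure D2:**
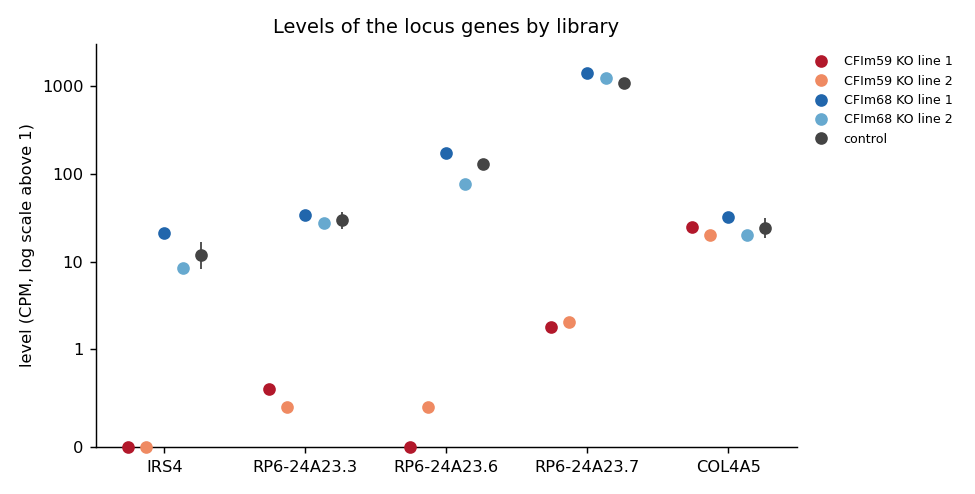
Level of each of the 5 genes in CPM (vertical axis, log scale above 1) in the 5 libraries, 1 point per library, with a 95% counting interval on the control. The CFIm59 points of IRS4 and the RP6-24A23 genes lie between 0 and 2.06 CPM, below every other library, while the 5 COL4A5 points lie between 19.8 and 32.4 CPM.

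COL4A5, on the plus strand just before the locus, did not share the loss. It had 42 and 49 reads in the CFIm59 lines, 94 and 45 in the CFIm68 lines and 65 in the control, which is 22.6 ± 3.45 CPM in CFIm59 knockouts, 26.1 ± 8.91 CPM in CFIm68 knockouts and 24.3 CPM in the control. The groups overlap. The log2 difference for CFIm59 knockout over control was -0.12 (SE 0.34, 95% interval -0.80 to 0.57, adjusted p = 0.870 by edgeR's quasi-likelihood test), where 13.9% of all genes were called. For CFIm68 knockout over control it was 0.12 (SE 0.33, interval -0.54 to 0.79, adjusted p = 0.905). Between the knockouts, CFIm68 over CFIm59, it was 0.24 (SE 0.28, interval -0.32 to 0.80, adjusted p = 0.598), where 19.7% of genes were called. Its direction was not stable to leaving out single libraries, with a range of -0.26 to 0.05 for CFIm59 knockout over control.

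What stood out in COL4A5 was the use of 2 last exon sites, 679 nt apart, in CFIm68 line 1. The upstream site, 107940090, had 0 and 2 reads in the CFIm59 lines, 20 and 3 in the CFIm68 lines and 1 in the control, and the downstream site, 107940769, had 31 and 31, then 56 and 31, then 47. The upstream share was 0% of 31 reads in CFIm59 line 1, which allows up to 9.68% at a floor of 3 reads, and 6.06% in line 2. It was 26.3% (Wilson 95% interval 17.7 to 37.2) in CFIm68 line 1 and 8.82% in line 2, and 2.08% (0.369 to 10.9) in the control.

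The upstream to downstream ratio was higher in CFIm68 knockout than in control by 3.38 on the log2 scale (SE 1.15, adjusted p = 0.0212 by edgeR's quasi-likelihood test over 5869 genes, of which 28.1% were called). It was higher in CFIm68 than in CFIm59 knockout by 2.84 (SE 0.94, adjusted p = 0.0103, 46.6% called). For CFIm59 knockout over control the difference was 0.54 (SE 1.72, 95% interval -2.91 to 3.99, adjusted p = 0.905, 5.98% called). The first 2 calls rested on CFIm68 line 1: without it the differences were 2.02 (adjusted p = 0.388) and 1.49 (adjusted p = 0.406), and without CFIm59 line 1 the difference between the knockouts was 1.89 (adjusted p = 0.141). DESeq2 made neither call (adjusted p = 0.218 and 0.0892).

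**Figure D3:**
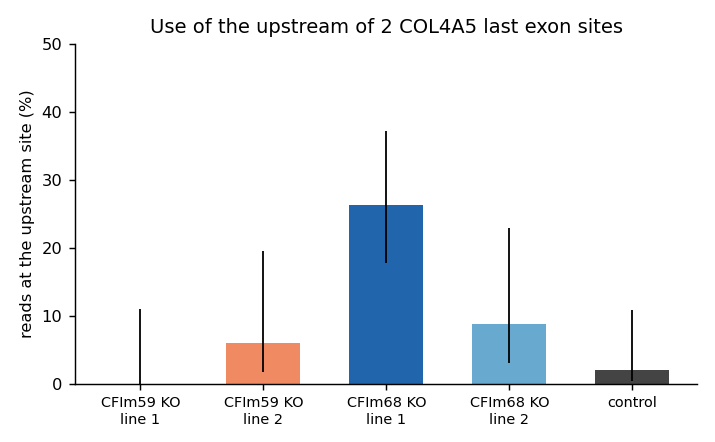
Percentage of reads at the upstream of 2 COL4A5 last exon sites (bars) with Wilson 95% intervals (lines) in the 5 libraries. CFIm68 line 1 stands at 26.3%, and the other 4 libraries lie between 0% and 8.82%, while its interval overlaps those of CFIm68 line 2 and CFIm59 line 2.

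Site choice within the lost genes could be tested only between CFIm68 knockout and control. In RP6-24A23.6 the upstream site 107968521 took 58.6% and 38.5% of the reads of its pair with 107965513 in the CFIm68 lines, against 41.2% (interval 34.3 to 48.5) in the control. The log2 difference of the ratio was 0.59 (SE 0.43, 95% interval -0.27 to 1.45, adjusted p = 0.335). In RP6-24A23.7 the site 107965284 took 1.05% and 0.667% of its pair with 107963181 in the CFIm68 lines and 1.15% in the control, with a difference of -0.40 (SE 0.48, interval -1.38 to 0.57, adjusted p = 0.592). IRS4 and RP6-24A23.3 had too few reads at a second site.

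Of 29 genes listed within 2 Mb on either side, 17 had enough reads to test, and 8 were lower and 0 higher in CFIm59 knockout than in control. Their share lower was 47.1%, against 6.87% of all genes tested (6.98% were higher), and their median log2 difference was -1.15, against 0.02 over all genes. For CFIm68 knockout over control 0 were called in either direction, with 1 lower at an unadjusted p under 0.05, and the median was -0.11, against 0.02 over all genes. DESeq2 also called 0 there, with 14 left without an adjusted p. The CFIm59 count fell to 3 with DESeq2 and to 5 without CFIm59 line 2.

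TSC22D3, which encodes a glucocorticoid-induced leucine zipper protein, stood out among these neighbours. Its sites end 0.945 Mb before the lost sites, and it had 7 and 11 reads in the CFIm59 lines, 201 and 163 in the CFIm68 lines and 270 in the control. The CFIm59 lines lay below all others, with a log2 difference of -4.51 from the control (SE 0.34, adjusted p = 5.31e-15 by edgeR). Against the same control the CFIm68 lines differed by -0.51 (SE 0.25, adjusted p = 0.275).

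The other 7 neighbours that were lower in CFIm59 knockout differed by -1.15 to -1.91 on the log2 scale. On the centromere side, PRPS1, a phosphoribosyl pyrophosphate synthetase, had 179 and 209 reads in the CFIm59 lines, 508 and 480 in the CFIm68 lines and 593 in the control (-1.21, SE 0.24, adjusted p = 0.000353). MID2, a ubiquitin ligase of microtubules, fell by 1.82, PSMD10, a proteasome assembly factor, by 1.22, and ATG4A, an autophagy protease, by 1.34. On the far side, NXT2, an mRNA export factor, had 12 and 18 reads in the CFIm59 lines, 60 and 37 in the CFIm68 lines and 74 in the control (-1.91, SE 0.39, adjusted p = 0.000347). ACSL4, an acyl-CoA synthetase of arachidonic acid, fell by 1.33 and AMMECR1 by 1.15. AMMECR1 had 26.8 and 9.05 CPM in the CFIm59 lines, 36.2 and 39.2 CPM in the CFIm68 lines and 37.7 CPM in the control, and its difference was -0.49 (adjusted p = 0.480) without CFIm59 line 2 and -2.04 without line 1. MID2 was not called without CFIm59 line 2 (-1.21), nor ATG4A without line 1 or line 2. Of the 7, DESeq2 called only PRPS1 and PSMD10, both on the centromere side, and thus no neighbour on the far side. Among the nearest tested genes, COL4A6 and TMEM164 did not pass, with differences of 0.02 (adjusted p = 0.978) and -0.38 (adjusted p = 0.499). COL4A6, which starts beside COL4A5, had 25 and 51 reads in the CFIm59 lines, 41 and 33 in the CFIm68 lines and 48 in the control.

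The lower levels reached far beyond these neighbours along the chromosome. In the 6 windows of 10 Mb from 100 Mb on, the median log2 difference of CFIm59 knockout over control lay between -0.89 and -0.45, and 83 of 241 genes were called lower and 14 higher. In the 10 windows before 100 Mb it lay between -0.71, in a window of 5 genes, and 0.66, and 18 of 274 genes were lower and 33 higher. Both lines showed it: in the window from 100 to 110 Mb, which holds the locus, the median difference from the control was -0.62 in CFIm59 line 1 and -0.80 in line 2, against -0.12 and -0.11 in the CFIm68 lines. Over all 16 windows the CFIm68 medians lay between -0.34 and 0.27. The border of 100 Mb was chosen after the values were seen and is a description.

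**Figure D4:**
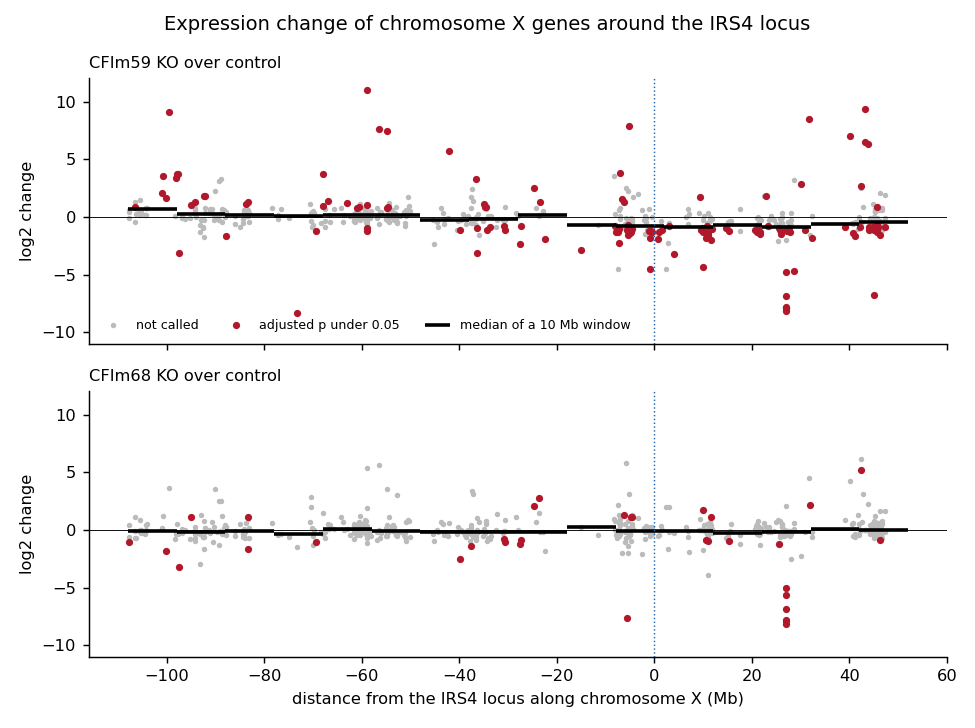
Log2 difference from the control of each tested chromosome X gene other than the 5 described (vertical axis) against distance in Mb from the IRS4 locus (horizontal axis, dotted line at the locus), for CFIm59 knockout (top) and CFIm68 knockout (bottom), with called genes in red and medians of 10 Mb windows as bars. From the window of the locus to the right end, the CFIm59 medians lie between -0.89 and -0.45, and the CFIm68 medians between -0.29 and 0.07.

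The genes whose levels over the 5 libraries were most like those of IRS4 were RP6-24A23.3 and genes on other chromosomes. Low CFIm59 values chose both IRS4 and RP6-24A23.3, so their closeness follows from that choice. Any gene near 0 in the CFIm59 lines with similar levels elsewhere also ranks high, so the order is a description. Likeness was the distance between centred log2(CPM + 0.5) values, which also grows with a gene's read count where other libraries are near 0. It was 0.745 for RP6-24A23.3, 3.07 for RP6-24A23.6 and 4.72 for RP6-24A23.7, the last 2 of which had more reads than IRS4 outside the CFIm59 lines, and 5.05 for COL4A5. The 5 nearest other genes were RP11-527N22.1 on chromosome 8 (0.963), LINC01021 on chromosome 5 (1.02), OR7E38P on chromosome 7 (1.21), RP11-138J23.1 on chromosome 5 (1.25) and ESPNL on chromosome 2 (1.31). LINC01021, for one, had 3 and 7 reads in the CFIm59 lines, 169 and 65 in the CFIm68 lines and 113 in the control. ESPNL had 0 and 0, then 24 and 11, then 12. TSC22D3 ranked 7 in this order.

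Among the other insulin receptor substrates, IRS2 was higher in the CFIm59 lines and IRS1 was not called. IRS2, which mediates insulin action in liver and pancreatic islets, lies on chromosome 13. COL4A1 and COL4A2 lie there too and were also higher in the CFIm59 lines. Whether these rises are linked to each other or to IRS4 was not tested. IRS2 had 94 and 144 reads in the CFIm59 lines, 12 and 8 in the CFIm68 lines and 23 in the control. Every CFIm59 value lay above all others. The log2 difference was 2.74 for CFIm59 knockout over control (SE 0.37, adjusted p = 2.34e-07 by edgeR's quasi-likelihood test) and -3.88 for CFIm68 over CFIm59 knockout (SE 0.32, adjusted p = 1.48e-13). For CFIm68 knockout over control it was -1.14 (SE 0.47, adjusted p = 0.185). IRS1 had 16 and 16 reads in the CFIm59 lines, 11 and 15 in the CFIm68 lines and 14 in the control, a difference of 0.59 for CFIm59 knockout over control (SE 0.59, adjusted p = 0.562).

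The receptors that IRS4 serves were not called for CFIm59 knockout over control. IGF1R had 156 and 184 reads in the CFIm59 lines, 134 and 126 in the CFIm68 lines and 134 in the control, a log2 difference of 0.75 for CFIm59 knockout over control (SE 0.28, adjusted p = 0.0610). INSR had 52 and 79, then 72 and 44, then 45, a difference of 0.92 (SE 0.34, adjusted p = 0.0618). Both passed in some other fits and not in others. Across the edgeR and DESeq2 fits tried, the adjusted p ran from 0.0365 to 0.309 for IGF1R. For INSR it ran from 0.0463 to 0.421, and both were lowest with only the 2 groups compared. Between the knockouts, CFIm68 over CFIm59, IGF1R differed by -0.73 (SE 0.22, adjusted p = 0.0145), a call lost without CFIm59 line 1 (adjusted p = 0.145) or CFIm68 line 1 (adjusted p = 0.127). Of 22 tested adaptors and receptors of insulin and IGF signalling, IRS4 left out, 1 was higher (IRS2) and 1 lower (GRB14, an adaptor that inhibits the insulin receptor, -1.01) in CFIm59 knockout than in control, where 6.98% of all genes were higher and 6.87% lower, and the list median was 0.03 against 0.02 over all genes. The number higher was 3 without CFIm68 line 1 and 2 without CFIm68 line 2, and the number lower was 0 without CFIm59 line 1 and 0 with DESeq2. For CFIm68 knockout over control edgeR called 0 of the 22 in either direction, with 1 higher and 1 lower at an unadjusted p under 0.05, and DESeq2 called 0, with 19 left without an adjusted p. GRB14 had 37 and 74 reads in the CFIm59 lines, 141 and 100 in the CFIm68 lines and 144 in the control, and its difference was 0.31 (adjusted p = 0.824) from last exon sites alone.

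Further along the pathway, 4 of 25 tested genes of the PI3K, AKT and mTOR list were higher and 1 lower in CFIm59 knockout than in control, where 6.98% of all genes were higher and 6.87% lower, and the list median was 0.07 against 0.02 over all genes. Those higher were RICTOR, a subunit of mTOR complex 2 (log2 difference 1.25, adjusted p = 0.00317 by edgeR), RPS6KB1, the S6 kinase (1.02, adjusted p = 0.0203), GSK3A (0.83, adjusted p = 0.0302) and AKT2 (0.77, adjusted p = 0.0304). RHEB, the GTPase that activates mTOR complex 1, fell by 0.93 (adjusted p = 0.00579). The number higher was 0 with DESeq2 and 1 without CFIm59 line 1, where RPS6KB1 differed by 0.56 (adjusted p = 0.351), and RHEB was not called without CFIm59 line 2 (adjusted p = 0.0756). For CFIm68 knockout over control TSC2 was higher (1.02) and FOXO4 lower (-1.35) in that list, where 1.59% of all genes were higher and 2.03% lower. TSC2 was not called without CFIm68 line 2 (0.49, adjusted p = 0.457), FOXO4 was not called without CFIm68 line 1 (adjusted p = 0.0536), and DESeq2 called 0 of the 25, with 14 left without an adjusted p.

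Among 13 tested FOXO target genes, 1 was lower in CFIm59 knockout than in control, KLF6 (-1.25), and 0 were higher. Of all genes, 6.87% were lower and 6.98% higher, so these counts were near that share. At an unadjusted p under 0.05 by edgeR, 3 of the 13 were higher and 2 lower. KLF6 was not called there with DESeq2 (adjusted p = 0.166), which called 0 of the 13, or without CFIm59 line 2 (adjusted p = 0.0547). In CFIm68 knockout KLF6 was lower (-1.14) and BCL2L11 was higher (1.34), where 2.03% of all genes were lower and 1.59% higher. CITED2 was also lower there, with 39.7 and 37.9 CPM in the CFIm68 lines against 77.7 CPM in the control. KLF6 was not called without CFIm68 line 1 (adjusted p = 0.0594), BCL2L11 and CITED2 were not called without CFIm68 line 2 (adjusted p = 0.0693 and 0.0503), and DESeq2 called 0 of the 13, with 9 left without an adjusted p.

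The type IV collagen relatives of COL4A5 on chromosome 13, which also holds IRS2, were higher in the CFIm59 lines. COL4A1 had 123 and 168 reads in the CFIm59 lines, 51 and 33 in the CFIm68 lines and 72 in the control, with a log2 difference of 1.40 for CFIm59 knockout over control (SE 0.30, adjusted p = 0.000688 by edgeR). COL4A2, its head-to-head partner, had 215 and 249, then 89 and 70, then 110, with a difference of 1.48 (SE 0.28, adjusted p = 0.000155). Both were lower in CFIm68 than in CFIm59 knockout, by -2.13 and -1.90. Of 23 tested genes of the collagen IV and basement membrane list, COL4A5 included, 4 were higher and 2 lower in CFIm59 knockout than in control, where 6.98% of all genes were higher and 6.87% lower, and the list median was 0.20 against 0.02 over all genes. PXDN, the enzyme that crosslinks collagen IV (1.00), and ITGA1, a collagen receptor subunit (1.40), were the others higher. P4HA1, a prolyl hydroxylase, fell by 1.81. DDR2, a fibrillar collagen receptor, had 0 and 5 reads in the CFIm59 lines, 3 and 3 in the CFIm68 lines and 101 in the control, so it was low in all 4 knockout lines. It was the 1 gene of the list called for CFIm68 knockout over control. DESeq2 called 0 there, with 17 of the 23 left without an adjusted p. For CFIm59 knockout over control the number higher was 2 with DESeq2 and 2 without CFIm59 line 2, and the number lower was 1 with DESeq2.

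**Figure D5:**
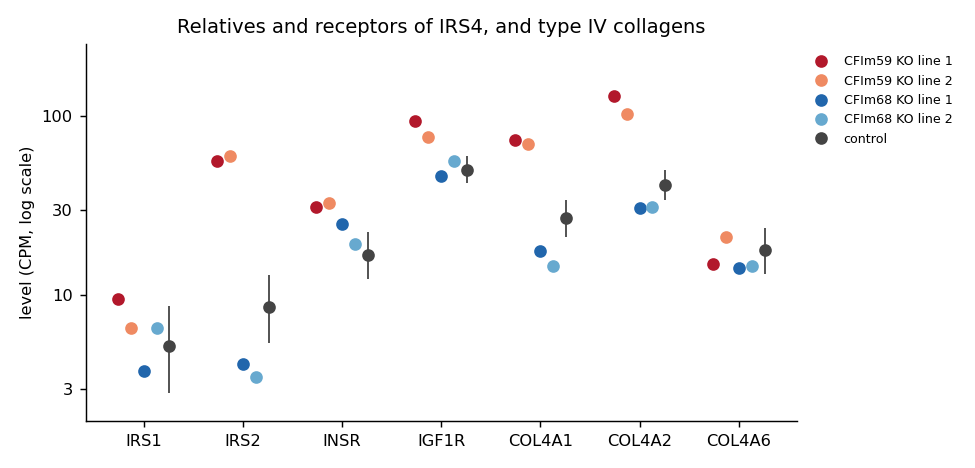
Level in CPM (vertical axis, log scale) of IRS1, IRS2, the receptors INSR and IGF1R, and the collagens COL4A1, COL4A2 and COL4A6 in the 5 libraries, 1 point per library, with a 95% counting interval on the control. The 2 CFIm59 lines lie above the other 3 libraries for IRS2 (56.0 and 59.2 CPM against 8.59 CPM in the control), COL4A1 and COL4A2.

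Library totals ran between 1673687 and 2924266 reads, with the lowest in CFIm59 line 1. All 9 HEK293T marker genes had reads in every library, with summed levels of 219 and 267 CPM in the CFIm59 lines, 214 and 274 CPM in the CFIm68 lines and 260 CPM in the control. The sums hide single changes. By edgeR, EYA1 was lower than in the control in CFIm59 knockout (log2 difference -1.32), where 6.87% of all genes were. In CFIm68 knockout EYA1 (-1.37) and NEFL (-0.97) were lower, where 2.03% of all genes were, and 0 of these 9 markers were higher in either. NEFM had 8.35 and 38.3 CPM in the CFIm59 lines, 64.9 and 94.3 CPM in the CFIm68 lines and 37.0 CPM in the control. Epithelial markers (4 genes, 2 of them with reads, KRT5 and KRT14 at 0) summed to 56.0 and 14.4 CPM in the CFIm59 lines, 16.6 and 9.70 CPM in the CFIm68 lines and 10.1 CPM in the control. Fibroblast markers (3 of 4 with reads, COL1A2 at 0) summed to 8.94 to 18.1 CPM, and the 4 blood markers to 0 to 1.38 CPM. The part of the higher epithelial level of CFIm59 line 1 in the results was not tested. CPSF7, the gene edited in the CFIm59 lines, was not lower there: it had 61.6 ± 9.08 CPM in the CFIm59 lines, 165 ± 53.8 CPM in the CFIm68 lines (SD, 2 lines each) and 59.4 CPM in the control (log2 difference of CFIm59 knockout over control 0.04, SE 0.28, adjusted p = 0.947 by edgeR). CPSF6, the gene edited in the CFIm68 lines, had 47.6 and 45.4 CPM in the CFIm68 lines, 140 and 142 CPM in the CFIm59 lines and 119 CPM in the control (log2 difference of CFIm68 knockout over control -1.35, SE 0.25, adjusted p = 0.000511). Transcripts of an edited gene can still be polyadenylated, and the labels do not say where the genes were edited.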

How the data were processed

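Poly(A) site sequencing was read from 5 HEK293T libraries, and the authors deposited unnormalised counts of reads at each site. The submitters' processing notes name hg19, TopHat2 2.1.0 and deepTools 2.4 with no role for each; site calling, the handling of internal priming and the annotation release are not given there. Each site was taken at its first listing (the 17824 repeated listings held 0 reads), and counts were summed per gene. Genes were filtered with filterByExpr to 14636, scaled by TMM and tested with edgeR 4.0.16 (R 4.3.3) by its quasi-likelihood test, 2-sided, with Benjamini-Hochberg adjustment over all genes and a threshold of 0.05. All 5 libraries shared 1 spread per gene, so the lone control was assumed to vary like the knockout lines, and the spread is that between cell lines. Site use compared the 2 sites with most reads per gene (a mean of 20 or more reads for both and 5 for each, 5869 genes) with library terms and an interaction of site and group. Error values are SD over 2 lines or SE of the fit.

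The 5 genes, the lists and the neighbours were chosen with earlier results of these data known. Fitted values of IRS4 and the RP6-24A23 genes against or within CFIm59 knockout are not tested, because low reads there chose them. Named genes were the 5, their sites with 10 or more reads by number or name, IRS1, IRS2, INSR, IGF1R, COL4A1, COL4A2, COL4A6, up to 4 called genes per list and comparison with the smallest adjusted p, and the 6 nearest tested neighbours on either side (4 on the far side). AKT2, PXDN, ITGA1, TSC22D3's rank and the split of the X chromosome were chosen after the values were seen. Sequences come from RefSeq (GRCh38.p14) and GENCODE 29. All 5 genes matched GENCODE 29 by identifier; IRS4, IRS4-AS1 and COL4A5 matched the RefSeq promoter table. Fits were tested on simulated data. Alternatives were DESeq2 1.42.0, other scaling, filters, sites and left-out lines. Replicate numbers did not pair the samples.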

Additional observations from a re-analysis of the deposited data

How the results depend on the processing

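Levels of IRS4 and the RP6-24A23 genes in the CFIm59 lines moved little with scaling: the IRS4 bound was 6.11-fold and 6.67-fold with other scalings and 9.68-fold without CFIm59 line 1. None of the 5 genes was called for CFIm68 knockout over control under any alternative tried that gave an adjusted p. Library totals without TMM moved the median log2 difference of all genes by 0.23 for CFIm68 knockout over control, 0.15 for CFIm68 over CFIm59 knockout and 0.08 for CFIm59 knockout over control, and gave 430 genes higher and 120 lower in CFIm68 knockout than in control, against 232 and 297.

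DESeq2 called fewer genes: 15 higher and 63 lower for CFIm68 knockout over control, 284 and 318 for CFIm59 knockout over control (1022 and 1006 with edgeR), and 448 and 596 for CFIm68 over CFIm59 knockout (1385 and 1503). For site use it called 755 genes to proximal and 40 to distal for CFIm68 knockout over control, 8 and 14 for CFIm59 knockout over control, and 190 to distal for CFIm68 over CFIm59 knockout. When the outermost proximal and distal sites of each gene were paired, 110 genes moved to distal for CFIm68 knockout over control, 33 to proximal for CFIm59 knockout over control and 237 to distal for CFIm68 over CFIm59 knockout. With no minimum beyond 1 read, the counts were 118 to distal for CFIm68 knockout over control, and 34 to proximal and 143 to distal for CFIm59 knockout over control. With a minimum of 100 reads for the pair and 20 at either site, they were 515 to proximal and 84 to distal for CFIm68 knockout over control, 36 to proximal for CFIm59 knockout over control, and 752 and 148 for CFIm68 over CFIm59 knockout.

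Leaving out 1 knockout line gave 610 to 1184 genes lower for CFIm59 knockout over control, and 742 to 1188 higher and 890 to 1271 lower for CFIm68 over CFIm59 knockout. For site use it gave 35 to 90 genes to proximal and 127 to 428 to distal for CFIm59 knockout over control, and 236 to 316 to distal for CFIm68 over CFIm59 knockout. The IRS4 bound ran between 6.68-fold and 9.68-fold.

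The COL4A5 site use difference of CFIm68 knockout over control was 3.38 with DESeq2 (adjusted p = 0.218) and 2.02 to 3.88 with 1 line left out. For CFIm68 over CFIm59 knockout it was 2.81 with DESeq2 (adjusted p = 0.0892) and 1.49 to 6.49. The GRB14 difference for CFIm59 knockout over control was 0.31 from last exon sites only, the opposite direction, and the cause was not tested.

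Line numbers did not pair the samples (r = -0.0246 across 14636 genes between the line differences of the 2 knockouts). With the replicate block, 1466 genes were higher and 1599 lower for CFIm68 over CFIm59 knockout, 2393 moved to proximal and 375 to distal, and the COL4A5 site use difference was 2.67 (adjusted p = 0.0134). With IRS4, RP6-24A23.6 and RP6-24A23.7 summed as 1 gene, a choice made after seeing the data, the neighbours called lower for CFIm59 knockout over control numbered 8, as before. IRS4's 32 control reads limit the fold that could be seen at the sites listed under that gene. For the minus-strand sum, with 3239 control reads, the fold was 552. Having 1 control library limits every comparison with the control.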
